A study of Homo sapiens with 6 samples.

Results

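Potassium channel genes were taken as every symbol of the deposited table that starts with KCN, continues in letters and ends in a number, which leaves out antisense and overlapping transcripts. The rule uses names alone, and it found 95 genes of 26372 in the table. By its title the series concerns GOMAFU, a long RNA that codes for no protein (symbol MIAT), in the differentiation of human neurons. Polyadenylated RNA was sequenced from BE(2)-M17, an established neuroblastoma line, in 3 control libraries and 3 libraries with GOMAFU knockdown, numbered 2, 3 and 4 in each group. The labels describe lipid transfection with 100 pmol of small RNA for the series as a whole, and give neither the agent the control cells received nor the knockdown sequence. Nothing in them says that the replicates were separate cultures, so p-values measure the spread between these libraries, which may be technical. The values are FPKM, which corrects each gene's fragment number for its length and for library size, so levels can be set side by side between genes.

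Potassium channels let potassium leave the cell, which sets the resting voltage and ends action potentials. The genes fall into pore-forming families and auxiliary families. Voltage-gated (Kv) pores open on depolarization, calcium- and sodium-activated pores follow ions inside the cell, inward rectifiers (Kir) and tandem-pore (K2P) channels hold the resting voltage, and auxiliary subunits change how the pores gate or travel. In neurons the mix of these channels sets how readily and how often a cell fires.

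The targeted transcript was lower in every knockdown library than in any control. MIAT stood at 5.38, 5.96 and 8.57 FPKM in control replicates 2, 3 and 4 and 1.27, 1.32 and 3.21 FPKM in the knockdown libraries in the same order, a knockdown mean at 29.2% of the control mean. Its log2(FPKM + 1) difference was -1.42 (SE 0.27; adjusted p = 0.9998, limma), and an exact two-sided permutation test gave p = 0.1, the smallest that 3 against 3 allows. The depth in reads is not given by FPKM. The steps between low values put the depth of the libraries at 0.973 to 1.36 times that of control replicate 3. Knockdown replicate 4 stood apart, with a correlation to the other 5 libraries of 0.940 to 0.956 across genes against 0.984 to 0.997 among those 5. The summed FPKM of 38 type I interferon response genes was 74.7 to 80.6 in the controls and 627, 118 and 13478 in knockdown replicates 2, 3 and 4. All 36 of these genes in the fit were fitted above 0, and 0 were called (limma). Of the 36, 28 were higher in every knockdown library than in any control, against 4.01% of all genes. Several averaged 1 FPKM only through knockdown replicate 4, so for them the filter itself set the direction of the fitted value. It also favoured knockdown values above the controls, so the 28 is not an even count beside the 4.01%. Of 14 markers of the adrenergic neuroblastoma state 12 averaged 1 FPKM or more, led by MYCN at 2002 FPKM, while TH, which makes the precursor of catecholamines, was at 0.071 FPKM. No marker of blood (6 genes) or glia (6 genes) reached a mean of 1 FPKM, with CD3E, HBB and MOG at 0. The highest came close, with CD68 (blood) at 0.938 and S100B (glia) at 0.953 FPKM. CD68 was 2.57 FPKM in knockdown replicate 4, and S100B was 1.14 in control replicate 2 and 1.25 FPKM in knockdown replicate 4. The fibroblast markers DCN and THY1 stood at 68.1 and 56.6 FPKM and COL1A2 at 0.

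Of the 95 potassium channel genes 28 averaged 1 FPKM or more across the 6 libraries, the level taken here as expressed. That is 29.5% of them, against 46.1% of all genes in the table. Only 7 reached a mean of 10 FPKM (7.37%, against 25.6% of all genes), 21 lay between 1 and 10, another 21 between 0.1 and 1, and 23 were above 0 but under 0.1. A further 23 were listed at 0 in all 6 libraries. In the table an exact 0 may also be a failed estimate, so these are called listed at 0 and not absent. Without knockdown replicate 4 the count of expressed members was 27, since KCNN1 dropped out, and without both libraries numbered 4 it was 26.

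**Figure D1:**
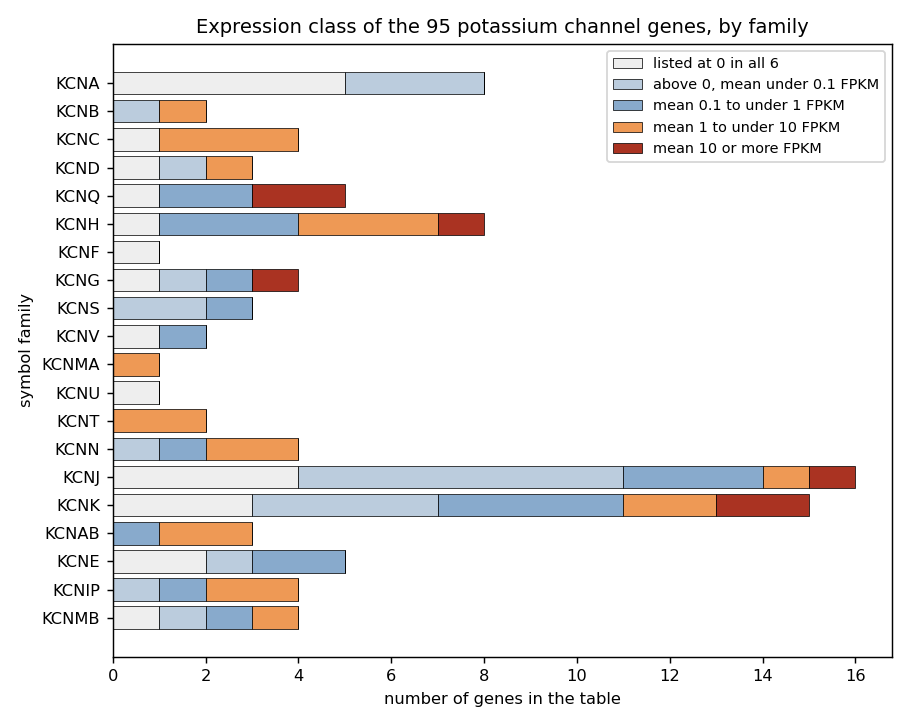
Number of potassium channel genes (x axis) in each symbol family (y axis), coloured by mean FPKM over the 6 libraries. The KCNA family has 8 genes and none at 1 FPKM, while both KCNT genes and the KCNMA gene are above 1 FPKM.

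Expression was spread over many families with few members each. Among voltage-gated pore genes 11 of 30 were expressed, among calcium- or sodium-activated pore genes 5 of 8, among inward rectifiers 2 of 16, among tandem-pore genes 4 of 15, among modifier subunits that do not form working pores alone (KCNF, KCNG, KCNS and KCNV) 1 of 10, and among auxiliary genes 5 of 16. The Kv1 family (KCNA), which shapes axonal firing in mature neurons, was the largest family without an expressed member. Of its 8 genes 5 were listed at 0 (KCNA1, KCNA2, KCNA4, KCNA5 and KCNA10), and the highest mean of the rest was 0.0103 FPKM. The KCNE family of single-span subunits also had none of 5 above 1 FPKM, with KCNE2 highest at 0.783 FPKM. The inward rectifiers KCNJ12 and KCNJ18 are near-identical copies, so their values near 0 (means of 0.0031 and 0 FPKM) are uncertain.

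The promoters of the expressed members show what kind of sequence lies before these genes. RefSeq promoter windows (GRCh38.p14, 250 bases before and 50 after the start) were matched for 23 of the 28. KCNAB3 and KCNG1 are among those not matched. Of the 67 genes under 1 FPKM only 71.6% were matched, so a comparison with them would be void and none was made. The 4 sequences below belong to KCNH2, a highly expressed member, to KCNK1, which was low in both libraries numbered 4, and to KCNH4 and KCNIP2, the expressed members whose groups did not overlap. Each is read 5′ to 3′ on the gene's strand, ends before the first annotated transcript start, and has its CG dinucleotides in capitals.
KCNH2, chr7:150978322-150978571, minus strand: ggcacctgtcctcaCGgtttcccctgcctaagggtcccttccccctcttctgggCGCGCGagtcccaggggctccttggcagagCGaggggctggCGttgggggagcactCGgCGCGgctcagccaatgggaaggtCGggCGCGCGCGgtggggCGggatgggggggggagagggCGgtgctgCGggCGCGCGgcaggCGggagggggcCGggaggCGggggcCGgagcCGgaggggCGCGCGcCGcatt
KCNK1, chr1:233613856-233614003, plus strand: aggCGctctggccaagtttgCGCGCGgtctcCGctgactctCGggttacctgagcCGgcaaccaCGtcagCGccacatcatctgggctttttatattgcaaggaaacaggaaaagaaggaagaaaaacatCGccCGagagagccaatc
KCNH4, chr17:42181279-42181392, minus strand: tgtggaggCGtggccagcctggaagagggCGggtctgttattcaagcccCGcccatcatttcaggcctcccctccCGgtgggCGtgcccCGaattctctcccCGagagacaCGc
KCNIP2, chr10:101843921-101844050, minus strand: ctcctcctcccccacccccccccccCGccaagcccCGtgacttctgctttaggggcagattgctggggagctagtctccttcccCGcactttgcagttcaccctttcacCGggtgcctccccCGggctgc

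CG dinucleotides number 29 in the 250 printed bases of KCNH2, 11 in 148 of KCNK1, 8 in 114 of KCNH4 and 5 in 130 of KCNIP2. The printed bases are shorter than the matched windows, which hold 39, 38, 27 and 19 for these genes in the same order. Over the full 300-base windows the 23 matched members had a median of 31 CG dinucleotides and 70.3% G + C, against 14 and 58.3% over all 27305 promoters of the RefSeq table. The range ran from 2 in KCNMB3 and 5 in KCNK2 to 54 in KCNMA1. The letters GGGCGG, the core of the GC box bound by SP1, stood on either strand in 17 of the 23 windows (73.9%) and in 44.6% of all promoters. CACGTG, the E-box read by MYC proteins, was in 1 of them, KCNH4 (4.35%, against 7.43% of all promoters), though not within its printed bases. TATAAA was in 3 (13% against 12%). These are matches of letters only. The 27305 promoters were not chosen by expression, and no share over other expressed genes is given. The CG, G + C and GGGCGG figures thus cannot be read as particular to potassium channel genes.

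Positions below are those of GENCODE 29 on hg38, and all 28 expressed members are annotated as protein coding. The voltage-gated pore genes held most of the summed FPKM of the members, with sums of 222, 226 and 227 FPKM over their 30 genes in control replicates 2, 3 and 4 and of 222, 222 and 224 FPKM in the matching knockdown libraries. The sums were thus close to level across the libraries. KCNQ5, a pore of the slow M-current, had a mean of 10.2 FPKM and KCNQ3, another of that family, 0.321 FPKM. KCNQ5 was 8.53, 9.24 and 13.5 FPKM in the controls and 8.74, 9.23 and 12.2 FPKM in the knockdown libraries, with the high value in replicate 4 of both groups.

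KCNH2 (chr7:150944961-150978315, minus strand), the ERG channel that repolarizes heart muscle and damps firing in neurons, was 59.4, 61.5 and 52.0 FPKM in the controls and 61.1, 59.6 and 49.9 FPKM in the knockdown libraries (log2 difference -0.02, SE 0.11). The replicate 4 libraries were the lowest of each group, and the groups overlapped. Among its relatives KCNH6 averaged 1.23 and KCNH8 1.12 FPKM. KCNH4, an ELK-type channel, is described below. Of the fast Kv3 family KCNC1 averaged 6.43 and KCNC4 2.67 FPKM, and KCNC2 was listed at 0. KCNC1 was 6.10, 5.66 and 7.64 FPKM in the controls and 6.21, 5.48 and 7.46 in the knockdown libraries, and the groups overlapped. KCND1, a Kv4 pore, averaged 1.5 FPKM. KCNC1 lies over SERGEF on the opposite strand, and whether strand was counted is not given in the sources used here, so reads of the pair cannot be told apart.

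The resting-voltage families were carried by a few genes. KCNJ8 (chr12:21764955-21775581, minus strand), the Kir6.1 pore of ATP-sensitive channels, was 37.4, 41.2 and 45.6 FPKM in the controls and 41.0, 34.6 and 36.0 FPKM in the knockdown libraries, and 1 knockdown value lay within the control range (log2 difference -0.15, SE 0.10). Its regulatory partner ABCC9 had a mean of 2.79 FPKM, while the other pair of that channel type, KCNJ11 and ABCC8, averaged 0.573 and 0.753 FPKM; both ABCC genes were picked here as partners after their values were seen. KCNJ14, a Kir2 rectifier, was 2.69, 1.90 and 1.83 FPKM in the controls and 2.88, 2.93 and 1.79 FPKM in the knockdown libraries, and it overlaps GRWD1 on the same strand, so its reads may be shared. Of the tandem-pore genes, KCNK1 averaged 34.9 FPKM, the acid-sensitive leak channel KCNK3 26 FPKM, and the stretch- and lipid-sensitive channels KCNK2 and KCNK10 2.71 and 1.08 FPKM. KCNK3 (chr2:26692690-26733420, plus strand) was 24.1, 24.8 and 24.4 FPKM in the controls and 23.1, 23.8 and 35.7 FPKM in the knockdown libraries. The controls had an SD of 0.357 FPKM (n = 3), and knockdown replicate 4 lay far above all 5 others.

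Channels opened by calcium or sodium inside the cell were expressed at single-digit levels. KCNMA1, the BK pore, was 8.07, 7.91 and 10.2 FPKM in the controls and 8.65, 7.72 and 9.96 FPKM in the knockdown libraries (log2 difference 0.01, SE 0.13). KCNT2 and KCNT1, the sodium-activated Slick and Slack pores, averaged 6.18 and 5.82 FPKM, and the small-conductance pores KCNN2 and KCNN1 averaged 3.40 and 1.21 FPKM. KCNT1 was 6.19, 6.41 and 5.42 FPKM in the controls and 5.66, 6.38 and 4.85 FPKM in the knockdown libraries, with overlap. The only modifier subunit at this level was KCNG1, which joins Kv2 pores, with a mean of 25.8 FPKM. Among auxiliary genes KCNAB2 and KCNAB3 (Kv beta subunits) averaged 7.94 and 2.84 FPKM, KCNMB3 (a BK beta subunit) 3.13 FPKM, and KCNIP2 and KCNIP4, calcium-binding partners of Kv4 pores, 2.16 and 1.59 FPKM. KCNAB3 was 3.09, 2.94 and 2.94 FPKM in the controls and 2.87, 2.97 and 2.24 FPKM in the knockdown libraries. KCNMB3, which overlaps PIK3CA on the opposite strand, was 3.14, 2.09 and 3.51 against 3.09, 3.12 and 3.82 FPKM. Opposite-strand neighbours at 1 FPKM or more also overlap KCNAB2 (NPHP4) and KCNIP4 (PACRGL).

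**Figure D2:**
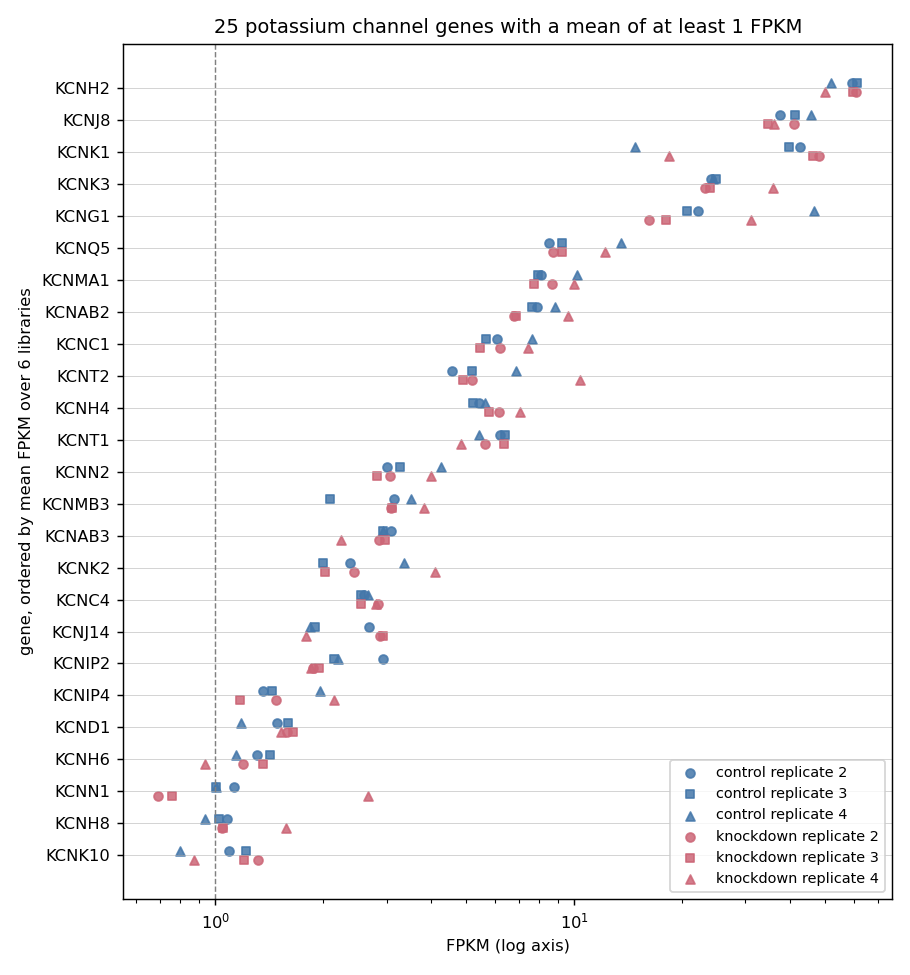
FPKM of 25 of the 28 expressed members (y axis, ordered by mean) in each library on a log axis, controls in blue and knockdown in red, with a triangle for replicate 4. KCNH2 sits highest of those shown in every library, and for KCNK1 and KCNG1 the triangles of both groups lie together, away from the circles and squares.

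No potassium channel gene differed between knockdown and control past the threshold. limma was fitted to log2(FPKM + 1) of the 12164 genes that averaged 1 FPKM or more, with Benjamini-Hochberg adjustment over all of them and a threshold of 0.05. It called 0 of the 28 members higher and 0 lower, and 0 of all genes in either direction (0% each). At an unadjusted p under 0.05, 0 members were found in either direction, against 0.97% of all genes higher and 1.19% lower. The fitted difference was above 0 for 15 members and below 0 for 13, with a median of 0.02 on the log2 scale against -0.01 over all genes. By role, all 4 expressed tandem-pore genes were fitted above 0 (median 0.12) and 4 of 5 auxiliary genes below 0 (median -0.07), while the voltage-gated pores divided 6 to 5. These differences did not pass the test.

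Among expressed members, 1 was higher in all 3 knockdown libraries than in all 3 controls (3.57% of members, against 4.01% of all genes) and 1 was lower (3.57% against 4.35%), shares near the background. The higher one was KCNH4 (chr17:42156891-42181278, minus strand), whose pore belongs to the ELK family of brain channels. It was 5.44, 5.23 and 5.63 FPKM in the controls and 6.18, 5.78 and 7.05 FPKM in the knockdown libraries, or 5.43 ± 0.197 against 6.34 ± 0.648 FPKM (mean ± SD, n = 3 each). Its log2 difference was 0.19 (SE 0.09; adjusted p = 0.9998, limma), the smallest unadjusted p of any member (0.0846), and the difference was 0.12 without knockdown replicate 4. The lower one was KCNIP2 (chr10:101825974-101843920, minus strand), a calcium sensor that brings Kv4 pores to the membrane. It was 2.93, 2.14 and 2.20 FPKM in the controls and 1.88, 1.95 and 1.85 FPKM in the knockdown libraries, or 2.42 ± 0.439 against 1.89 ± 0.051 FPKM (mean ± SD, n = 3 each), and a log2 difference of -0.23 (SE 0.13; adjusted p = 0.9998, limma). Control replicate 2 lay well above the other controls, the difference was -0.13 without it, and the lowest control was close to the highest knockdown value.

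Below 1 FPKM, 3 members were higher in all knockdown libraries than in all controls and 3 lower, each 4.48% of the 67, against 1.84% higher and 1.16% lower over all 14208 genes under 1 FPKM. Both denominators include genes listed at 0 in every library, 23 of the 67 members and 7709 of the 14208 genes. Such genes cannot separate the groups, so they lower the share over all genes more than that of the members. In addition, 3 genes a direction are few. They were not in the fit, and their levels rest on few fragments. KCNK5, an alkaline-activated tandem-pore channel, was 0.639, 0.752 and 0.486 FPKM in the controls and 0.945, 1.10 and 0.955 FPKM in the knockdown libraries, and only the knockdown library of replicate 3 passed 1 FPKM. KCNK9, an acid-sensitive leak channel, was 0.179, 0.0893 and 0.124 FPKM in the controls and 0.231, 0.225 and 0.191 FPKM in the knockdown libraries. KCNMB2, a BK beta subunit, was 0.0245, 0 and 0 FPKM against 0.05, 0.0594 and 0.0253 FPKM. KCNG3, a modifier subunit, was 0.0956, 0.0873 and 0.0898 FPKM against 0.0162, 0.0515 and 0.0164 FPKM. KCNA7 was 0.0137, 0.0150 and 0.0154 FPKM in the controls and listed at 0 in the knockdown libraries. After scaling by relative depth its control values were 1.002, 1 and 1.001 times that of control replicate 3, so the 3 libraries held the same small number of fragments. Other members between 0.5 and 1 FPKM were KCNE2 (0.783), KCNK12 (0.618), KCNJ11 (0.573) and KCNAB1 (0.551).

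Each knockdown library was then set against the range of the 3 controls. In knockdown replicate 2, 5 of the 28 expressed members lay above all controls (17.9%, against 23.1% of all genes) and 7 below (25%, against 25.9%). In knockdown replicate 3, 5 lay above (17.9%, against 22.7%) and 11 below (39.3%, against 21.2%). In knockdown replicate 4, 10 lay above (35.7%, against 30.7%) and 7 below (25%, against 35.9%). Taken as log2 differences from the mean of the controls, the members' medians were -0.04, -0.03 and 0.16 for knockdown replicates 2, 3 and 4, and -0.01, 0.00 and -0.01 over all genes. Against control replicates 2 and 3 alone, a setting added after the values were seen, the members above numbered 11, 5 and 17 of 28 in knockdown replicates 2, 3 and 4 (all genes 35.5%, 30.6% and 41.6%) and the members below 9, 11 and 9 (all genes 40.5%, 31.0% and 45.6%).

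**Figure D3:**
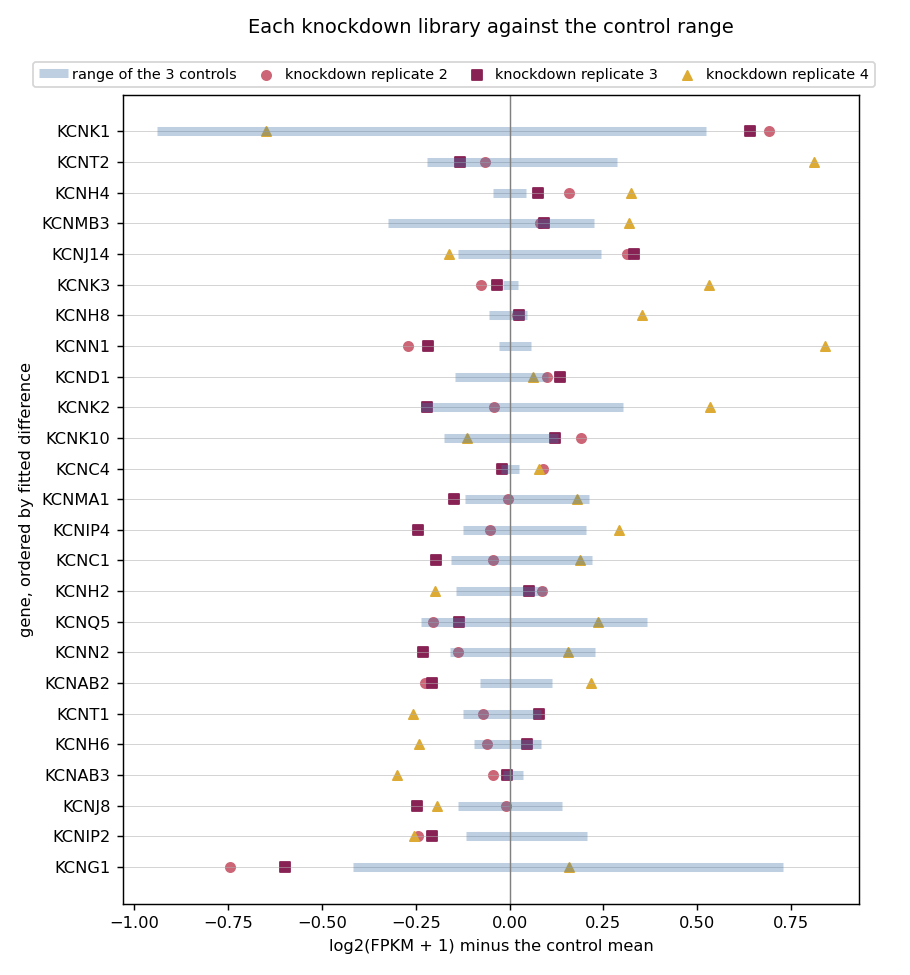
Each knockdown library minus the control mean on the log2(FPKM + 1) scale (x axis) for 25 of the 28 expressed members (y axis, ordered by fitted difference), with the range of the 3 controls as a bar. KCNH4 and KCNIP2 have all 3 knockdown marks on the same side of the bar, while KCNN1, KCNK3 and KCNAB2 have replicates 2 and 3 to the left of it and replicate 4 to the right.

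Knockdown replicates 2 and 3 placed 3 members above all controls in both libraries (KCNH4, KCNJ14 and KCNK1; 10.7%, against 11.1% of all genes) and 6 below in both (among them KCNAB2, KCNG1, KCNIP2, KCNK3 and KCNN1; 21.4%, against 11.6%). For 3 of those 6, replicate 4 lay on the other side: KCNAB2, KCNK3 and KCNN1 were below all controls in replicates 2 and 3 and above all controls in replicate 4 (10.7%, against 4.18% of all genes). KCNAB2 was 7.89, 7.63 and 8.85 FPKM in the controls and 6.79, 6.89 and 9.60 FPKM in the knockdown libraries. KCNN1 was 1.12, 1.00 and 1.00 FPKM in the controls and 0.693, 0.757 and 2.66 FPKM in the knockdown libraries, so its fitted difference of 0.12 (SE 0.30) became -0.24 without knockdown replicate 4. KCNJ14 did the reverse, above the controls in replicates 2 and 3 and below them in replicate 4 (1 member, 3.57%, against 4.12%). KCNN1, singled out after its values were seen, thus has knockdown libraries that disagree in direction.

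Several members were well above the other 5 libraries in knockdown replicate 4 alone. The share of all genes that did so is not given, so this is not shown to be particular to the members. In that library 30.7% of all genes lay above all 3 controls. KCNIP1, a Kv4 partner, was 0.128, 0 and 0 FPKM in the controls, 0.0652 and 0 FPKM in knockdown replicates 2 and 3, and 1.52 FPKM in replicate 4. KCNS3, a modifier of Kv2 pores, was 0.803 FPKM there and at most 0.294 FPKM elsewhere, and KCNN1 was 2.36 times the highest other library. KCNT2 was 4.56, 5.19 and 6.90 FPKM in the controls and 5.19, 4.91 and 10.4 FPKM in the knockdown libraries, with a log2 difference of 0.20 (SE 0.27) that was -0.10 without knockdown replicate 4. KCNH8, an ELK-type pore, was 1.08, 1.03 and 0.938 FPKM in the controls and 1.04, 1.05 and 1.57 FPKM in the knockdown libraries. KCNH6 went the other way, at 1.31, 1.42 and 1.14 against 1.19, 1.36 and 0.935 FPKM. The interferon response genes were highest in the same library (627, 118 and 13478 FPKM in knockdown replicates 2, 3 and 4), and their part in these values was not tested. KCNIP1 and KCNS3 were picked with their values in view.

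Several members differed more by replicate number than between the groups. KCNK1 (chr1:233614004-233672512, plus strand), a weakly conducting leak channel, was 42.6, 39.5 and 14.8 FPKM in control replicates 2, 3 and 4 and 48.0, 46.3 and 18.4 FPKM in the knockdown libraries of those numbers. Both libraries numbered 4 lay below the other 4, with a mean 0.376 times theirs. Within each number the knockdown library was above the control, by 0.17, 0.22 and 0.29 on the log2 scale for numbers 2, 3 and 4, while the fit over all libraries gave 0.23 (SE 0.49). KCNG1 (chr20:51003656-51023129, minus strand) showed the opposite, at 22.2, 20.6 and 46.7 FPKM in the controls and 16.2, 18.0 and 31.1 FPKM in the knockdown libraries, with the libraries numbered 4 at 2.02 times the mean of the others. Within each number the knockdown library was below the control, with differences of -0.43, -0.18 and -0.57, and the fit gave -0.39 (SE 0.35). That fitted value was -0.03 without control replicate 4 and -0.67 without knockdown replicate 4, and -0.31 without both.

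In all, 12 of the 28 members were above the other 4 libraries in both libraries numbered 4 (42.9%, against 21.2% of all genes) and 6 were below (21.4%, against 24.5%). With means at least 2-fold apart there were 2 above, KCNG1 among them (7.14%, against 1.05%), and 1 below, KCNK1 (3.57%, against 0.567%). The remaining members differed less, with KCNT2 at 1.74 times and KCNK2 at 1.69 times among those above, and KCNK10 at 0.692 times and KCNJ14 at 0.697 times among those below. The summed FPKM of 13 markers of the mesenchymal neuroblastoma state was also lowest in these libraries, at 376 in control replicate 4 and 353 in knockdown replicate 4 against 433 to 463 in the other 4, with 5 of the 13 expressed and 3 at 0. The sum followed VIM (193 and 146 FPKM in the libraries numbered 4, 272 to 302 elsewhere), while TWIST1 went the other way (175 and 198 against 154 to 162 FPKM), and the part of these markers in the pattern was not tested. The labels do not say what a replicate number stands for.

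**Figure D4:**
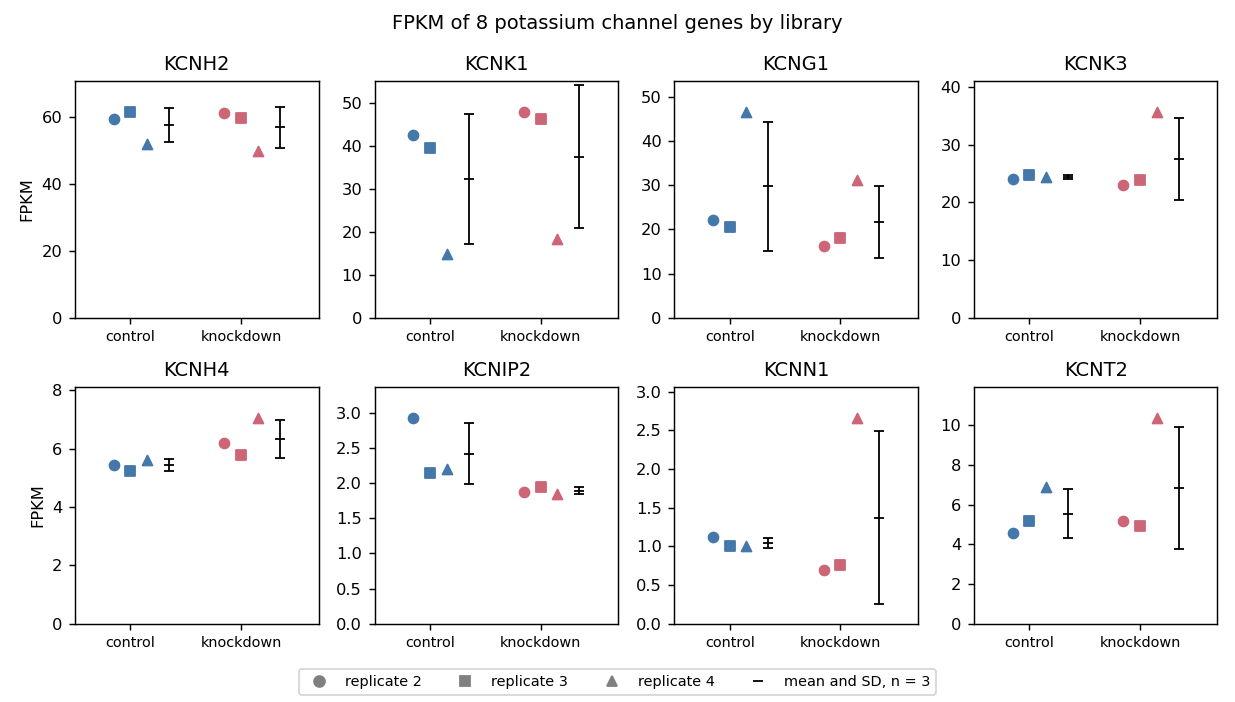
FPKM (y axis, from 0) of 8 members in control (blue) and knockdown (red) libraries, with a mark shape for each replicate number and the mean with SD (n = 3) in black. KCNK1 is low and KCNG1 is high in replicate 4 of both groups, KCNH4 and KCNIP2 have groups that do not overlap, and KCNK3, KCNN1 and KCNT2 are high in knockdown replicate 4.

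Genes that work beside these channels gave no call either. Of 31 partners (scaffolds, transport and regulatory proteins of potassium channels) 20 were expressed, with 0 called in either direction, 7 fitted above 0 and 13 below, and a median of -0.03. The highest were the calmodulins CALM2 (870 FPKM) and CALM3 (182 FPKM) and the casein kinase subunit CSNK2B (154 FPKM). Of 44 sodium, calcium, HCN and related channel genes 14 were expressed and 0 called, with a median of -0.02. CACNA2D2, a calcium channel subunit and the highest of them at 50.04 FPKM, was 50.6, 52.2 and 56.0 FPKM in the controls and 44.7, 46.8 and 49.8 FPKM in the knockdown libraries (log2 difference -0.16). Of 22 potassium pumps and cotransporters 10 were expressed and 0 called, with a median of -0.07, 2 fitted above 0 and 8 below.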

How the data were processed

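The authors deposited FPKM values for 26372 genes, in a column for each of the 6 libraries. TopHat2, Cuffdiff and hg38 are named in the submitters' processing notes, whose versions, strand setting and filters are not given here. The members, gene lists and alternatives were chosen with earlier results of these data known. The 12164 genes averaging 1 FPKM or more (28 of them members) were compared on log2(FPKM + 1) by limma 3.58.1 in R 4.3.3 (eBayes with trend), as a two-sided test of knockdown against control without covariates, and p-values were adjusted over all of them. Differences on this scale understate those of low genes. The fit was checked on simulated data with independent noise in each library. That simulation held no library set apart as knockdown replicate 4 was, so it does not show what the fit could find in these data. Expressed members and those averaging 0.5 to 1 FPKM are named, other than some that are not reported here. Values in every library are given for the 12 highest, for the 6 with the smallest p in each direction and for members whose groups did not overlap. Of each other list at most 4 genes, those with the highest means, are named beside the exceptions stated. Alternatives changed the pseudocount, filter, scaling, variance model, libraries and replicate block. Positions come from GENCODE 29 (GRCh38) and promoters from RefSeq (GRCh38.p14).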

Additional observations from a re-analysis of the deposited data

How the results depend on the processing

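No member was called under the alternatives to the limma fit other than that with no filter, where 1 member, KCNA7, was called lower (5 genes in all lower). Its difference was only -0.021 (SE 0.00071). The control values, 0.0137 to 0.0154 FPKM, rest on the same small number of fragments and the knockdown values are listed at 0, so the call rests on values at the floor. Library weights gave 9 genes higher and 13 lower and leaving out both libraries numbered 4 gave 1 lower, none of them a member. MIAT passed the threshold with library weights (-1.58) and without both libraries numbered 4 (-1.54). The members' median ran from -0.05 to 0.07. The replicate block, the replicate number as a term, cannot move a difference in this balanced design (KCNH4 0.19, members' median 0.02) but changes its SE: that of KCNK1 was 0.067 (unadjusted p = 0.0139) and that of KCNG1 0.092 (unadjusted p = 0.00504), with an adjusted p of 0.894 for both and 0 genes called (limma). Deviations of same-numbered libraries correlated at 0.092, 0.168 and 0.322 over all genes for numbers 2, 3 and 4, and at 0.676, 0.689 and 0.803 over the 28 members, where differently numbered 2 and 3 gave 0.747 and 0.648. Not every library correlated best with its own number. Changing the filter, the eBayes options or the replicate block leaves a fitted difference as it was, so direction could not turn under those settings. The counts that follow include them, so the share that kept direction overstates how stable the values were. Of 316 values of 19 members under alternatives, 289 kept direction and side of the threshold and 27 turned direction, all short of the threshold. With quantile normalization these included KCNH2 0.0017 and KCNMA1 -0.016. With library weights they included KCNK3 -0.064, KCNC1 0.069 and KCNN1 -0.20. Without both libraries numbered 4 they included KCNK3 -0.057, KCNQ5 0.014, KCNH8 -0.0049 and KCNN1 -0.26. Others came from leaving out 1 library, such as KCNK1 -0.24 without control replicate 4 and KCNT2 -0.099 without knockdown replicate 4. The cause was not tested.

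Leaving out 1 library in turn gave, from lowest to highest, differences of -0.091 to 0.069 for KCNH2, -0.24 to 0.67 for KCNK1, -0.055 to 0.25 for KCNK3, -0.67 to -0.03 for KCNG1, 0.12 to 0.24 for KCNH4, -0.29 to -0.13 for KCNIP2, -0.17 to 0.15 for KCNQ5, -0.076 to 0.12 for KCNMA1, -0.22 to 0.0055 for KCNAB2, -0.12 to 0.093 for KCNC1, -0.10 to 0.37 for KCNT2, -0.16 to 0.0033 for KCNT1 and -0.24 to 0.31 for KCNN1. At a mean of 5 FPKM 13 members were expressed, with 2, 2 and 4 above the control range (all such genes 22.4%, 23.2% and 28%) and 4, 7 and 3 below it (26.9%, 20% and 40.2%) in knockdown replicates 2, 3 and 4, since fewer genes were tested. Against control replicates 2 and 3 alone, 11 and 17 members lay above in knockdown replicates 2 and 4 (all genes 35.5% and 41.6%). FPKM gives no read depth, so members under 1 FPKM were given as values only.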
